A study of Mus musculus with 9 samples.

Results

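The 32 genes described here are immediate early response genes of the mouse, named by symbol among the 55453 genes counted in whole aorta. All 32 had enough reads to be tested, among 19412 tested genes. Immediate early genes are transcribed within minutes of a signal such as a growth factor, stretch, calcium entry or stress, without the need for new protein. Serum response factor with its partners and the cAMP response element binding protein wait at their promoters, and many of the short-lived products are themselves transcription factors (AP-1, EGR, NR4A and KLF proteins) that pass the signal on. Other products, such as the phosphatase Dusp1 and the mRNA decay factor Zfp36, end the response. In the vessel wall these genes are known to respond to injury, flow and mitogens.

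Whole, flash-frozen aortae of the C57BL/6J strain were sequenced, from 3 mice of each genotype named in the labels as Itga8-Cre, Myh11-Cre and Wild Type. The series set out to compare a tamoxifen-inducible Itga8-CreERT2 mouse with the established Myh11-CreERT2 mouse; Itga8 encodes integrin alpha 8 and Myh11 the myosin heavy chain of smooth muscle, the cells both lines are made to target. The labels state no age, sex, number of Cre copies or tamoxifen dosing, so Cre presence, Cre activity and the drug cannot be told apart, and they name no floxed allele. Replicates are separate mice. Levels are given in CPM, the reads of a gene relative to the reads of its library, with library sizes scaled by TMM factors.

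Nr4a1 had the widest spread of these genes between libraries, so the promoters of its family are shown first. RefSeq promoter windows of GRCm38.p6, running from 250 bases before to 50 bases after the start of transcription, were found for 26 of the 32 genes and not for Egr1, Egr3, Ier2, Klf10, Myc and Arc. Where a gene had several starts, the window of the 5′-most RefSeq start was used, which need not be the start of the counted transcripts. The Jund window (chr8:70697489-70697788) ends before its annotated gene begins at 70698949, and the Nr4a1 window lies inside its annotated gene. The core of the cAMP response element, TGACG on either strand, was present in 13 of the 26 windows (50%) and in 20.9% of 27025 windows of all genes. Nr4a1, Nr4a2 and Nr4a3 held 4 such cores each. The 250 bases before the start of these 3 orphan nuclear receptor genes are printed 5′ to 3′ in the direction of the gene, with every motif match in capitals. A core on the other strand reads CGTCA. Nr4a2 also holds a TATA box on the other strand, in capitals too. They lie at chr15:101266596-101266845 (plus strand), chr2:57124004-57124253 (minus strand) and chr4:48045055-48045304 (plus strand).
Nr4a1: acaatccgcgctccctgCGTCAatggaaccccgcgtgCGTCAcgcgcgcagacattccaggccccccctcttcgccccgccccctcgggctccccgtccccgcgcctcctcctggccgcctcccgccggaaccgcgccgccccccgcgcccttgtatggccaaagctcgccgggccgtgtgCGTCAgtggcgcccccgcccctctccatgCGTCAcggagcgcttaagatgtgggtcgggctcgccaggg
Nr4a2: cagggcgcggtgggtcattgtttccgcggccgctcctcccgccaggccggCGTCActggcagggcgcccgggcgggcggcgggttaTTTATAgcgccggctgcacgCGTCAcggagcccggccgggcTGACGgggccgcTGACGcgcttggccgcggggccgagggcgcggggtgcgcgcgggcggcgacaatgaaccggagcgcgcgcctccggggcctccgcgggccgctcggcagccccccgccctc
Nr4a3: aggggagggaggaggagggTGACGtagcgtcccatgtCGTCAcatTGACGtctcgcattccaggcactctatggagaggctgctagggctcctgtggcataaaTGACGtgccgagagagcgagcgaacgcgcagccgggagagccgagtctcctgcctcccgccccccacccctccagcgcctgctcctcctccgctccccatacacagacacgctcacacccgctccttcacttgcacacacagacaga

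The next 4 sequences come from AP-1, matrix effector and feedback genes. No EGR or KLF gene and none of the other nuclear factors is printed. The sequences are those of Fos (the AP-1 subunit), Ccn1 (a matricellular ligand of integrins), Dusp1 (a phosphatase of MAP kinases) and Zfp36 (tristetraprolin). TATAAA, searched on both strands, was present in 8 of the 26 windows (30.8%) and in 14.2% of all windows, and it began 33 bases before the start in Fos and 25 bases before the start in Ccn1. The full cAMP response element TGACGTCA, which contains the core, was present in 2 windows (7.69%, against 1.85% of all), those of Dusp1 and Btg2. A CArG box, the site of serum response factor, was present in 1 window (3.85%, against 1.59% of all), 58 bases before the start in Zfp36. The windows lie at chr12:85473640-85473889 (plus strand), chr3:145649986-145650235 (minus strand), chr17:26508473-26508722 (minus strand) and chr7:28379229-28379478 (minus strand).
Fos: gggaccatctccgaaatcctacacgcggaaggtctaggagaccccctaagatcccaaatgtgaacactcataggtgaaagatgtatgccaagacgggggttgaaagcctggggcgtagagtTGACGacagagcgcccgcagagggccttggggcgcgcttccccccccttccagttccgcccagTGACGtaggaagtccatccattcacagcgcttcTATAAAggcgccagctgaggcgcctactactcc
Ccn1: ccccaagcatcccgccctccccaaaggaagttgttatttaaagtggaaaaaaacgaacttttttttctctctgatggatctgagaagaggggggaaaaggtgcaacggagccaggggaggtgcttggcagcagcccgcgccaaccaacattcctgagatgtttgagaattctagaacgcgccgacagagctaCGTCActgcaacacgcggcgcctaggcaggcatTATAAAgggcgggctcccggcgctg
Dusp1: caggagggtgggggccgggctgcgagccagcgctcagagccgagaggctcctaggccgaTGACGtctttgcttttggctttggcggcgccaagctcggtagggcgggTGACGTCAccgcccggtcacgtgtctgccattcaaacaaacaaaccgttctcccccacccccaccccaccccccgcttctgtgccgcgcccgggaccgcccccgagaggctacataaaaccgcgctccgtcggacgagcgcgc
Zfp36: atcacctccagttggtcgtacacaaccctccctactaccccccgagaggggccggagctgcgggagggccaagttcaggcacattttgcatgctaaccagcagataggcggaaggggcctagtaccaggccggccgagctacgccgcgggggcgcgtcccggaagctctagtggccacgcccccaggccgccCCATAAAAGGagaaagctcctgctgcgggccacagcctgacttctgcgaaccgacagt

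The pattern TGANTCA, a loose form of the AP-1 site with any base at N, was present in 1 of the 26 windows (3.85%). The match, in Zfp36l1, reads TGATTCA. This loose pattern was present in 7.92% of all windows. The EGR site GCGTGGGCG was present in 0 of the 26 and in 0.622% of all windows. The core and TATAAA were searched after the other motifs had been seen. The median GC content of the windows was 64.2% for the immediate early genes and 52.7% for all genes, and TGACG holds both bases. A match describes letters in a window of 300 bases only; sites further away were not searched.

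In Itga8-Cre aortae, 20 of the 32 genes had a lower fitted level than in Wild Type, and the 8 lower ones with an unadjusted p under 0.05 were Nr4a1, Fosb, Ccn1, Nr4a2, Egr1, Jun, Dusp1 and Fosl2. Egr2 was the 1 higher gene at that level. No gene passed edgeR's quasi-likelihood test after Benjamini-Hochberg adjustment over all genes, in any of the 3 comparisons: 0 of 32 members and 0% of all 19412 genes in Itga8-Cre against Wild Type, 0% in Myh11-Cre against Wild Type and 0% in Itga8-Cre against Myh11-Cre. The smallest adjusted p of a member in this test was 0.699, 0.218 and 0.521 in these comparisons. The values that follow therefore describe these libraries, and an unadjusted p under 0.05 only marks genes for description and is not a call.

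In Itga8-Cre against Wild Type, 8 members (25%) were lower with an unadjusted p under 0.05, against 2.81% of all tested genes, and 1 member (3.12%) was higher, against 3.97% of all. For 8 members, Klf6 in place of Dusp1, each Itga8-Cre library lay below each Wild Type library (5.37% of all genes), and for 1 member, Egr2, all 3 lay above (5.76% of all genes). DESeq2 called 0 members at an adjusted p under 0.05 in this comparison, and 0.155% of all tested genes. In all 3 comparisons limma voom called 0 members and 0 of all 19412 tested genes. The median log2 fold change was -0.09 over the 32 genes and 0.04 over all tested genes. The shares over all genes, here and below, cover mean levels from 0.126 to 153842 CPM, while the members lie at 3.10 to 173 CPM. No such share was taken over genes of like level only. Leaving out 1 library at a time gave 6 to 9 lower members at an unadjusted p under 0.05. The higher members numbered 5 without Itga8-Cre 1, 3 without Wild Type 3 and 0 without Itga8-Cre 2 or without Wild Type 2. Other settings reuse these same mice, and the members were marked by this same p, so agreement across settings is no further support. In all 18 other settings tried, the unadjusted p of Fosl2, Jun, Egr1, Nr4a1 and Ccn1 was also under 0.05 with the same direction.

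**Figure D1:**
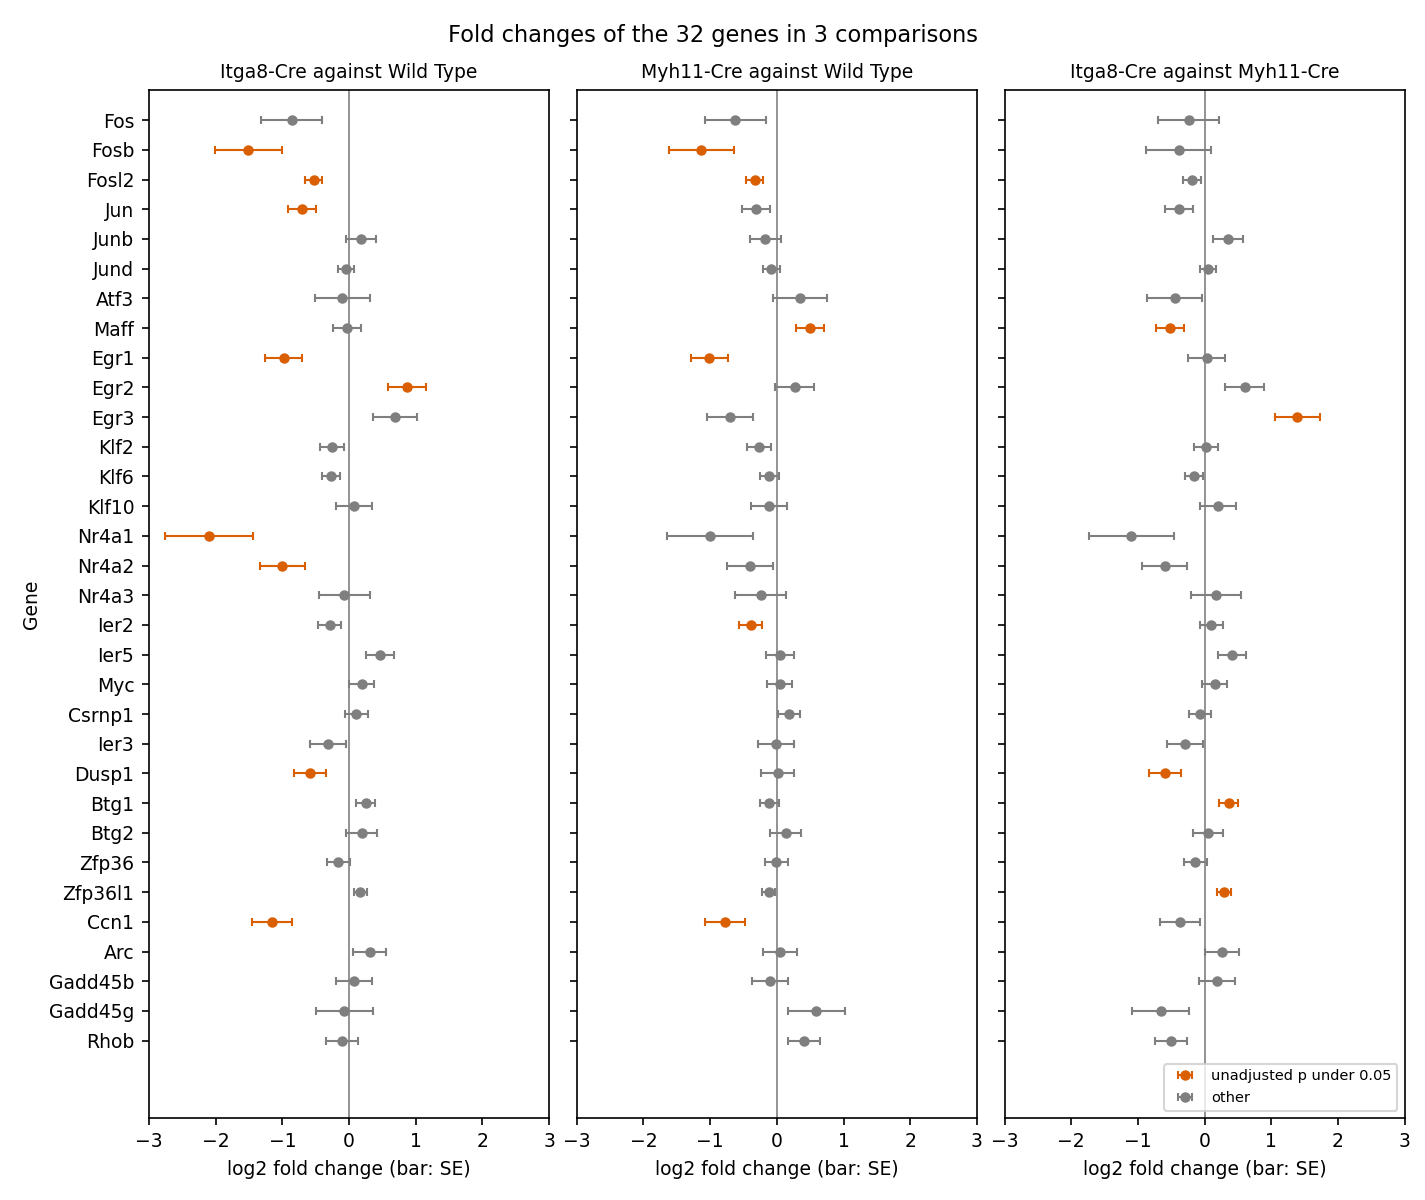
Log2 fold change (horizontal axis; positive means higher in the first-named genotype) of the 32 genes, in rows, in 3 comparisons fitted over 9 libraries with edgeR; bars are SE and orange marks an unadjusted p under 0.05. Orange points number 9 in Itga8-Cre against Wild Type, 6 in Myh11-Cre against Wild Type and 5 in Itga8-Cre against Myh11-Cre, and none passed after adjustment.

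In Myh11-Cre against Wild Type, 21 of 32 members were lower, with a median log2 fold change of -0.11 (0.01 over all genes). Here 5 members (15.6%) were lower with an unadjusted p under 0.05, against 9.48% of all tested genes, and 1 member (3.12%), Maff, was higher, against 6.93% of all. No member had all 3 Myh11-Cre libraries below all 3 Wild Type libraries, although 14.7% of all genes did. For 3 members, Maff, Rhob and Csrnp1, all 3 Myh11-Cre libraries lay above (11.3% of all genes). DESeq2 called 1 member, Egr1 (adjusted p = 0.03), and 4.26% of all tested genes. The 5 lower members became 1 without Myh11-Cre 1, 2 without Wild Type 3, and 3 without Itga8-Cre 2, Itga8-Cre 3, Myh11-Cre 2 or Wild Type 1. The higher member was lost without any 1 library other than Itga8-Cre 3, except that 2 were counted without Itga8-Cre 2.

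In Itga8-Cre against Myh11-Cre, 16 members were higher and 16 lower, with a median log2 fold change of -0.02 (0.01 over all genes). Dusp1 and Maff were lower with an unadjusted p under 0.05 (6.25% of members, against 1.83% of all genes), and Egr3, Zfp36l1 and Btg1 were higher (9.38%, against 7.64% of all). All 3 Itga8-Cre libraries lay below all 3 Myh11-Cre libraries for Maff, Rhob and Fosl2 (3.07% of all genes) and above them for Egr3, Zfp36l1 and Btg1 (9.65% of all genes). DESeq2 called 0 members and 0.0979% of all tested genes. With 1 library left out, the lower members numbered from 0 (without Myh11-Cre 3) to 6 (without Myh11-Cre 1), and the higher members from 1 (without Itga8-Cre 2) to 4 (without Itga8-Cre 1). Both Cre lines are set against the same 3 Wild Type libraries, so their values for a gene share those controls.

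**Figure D2:**
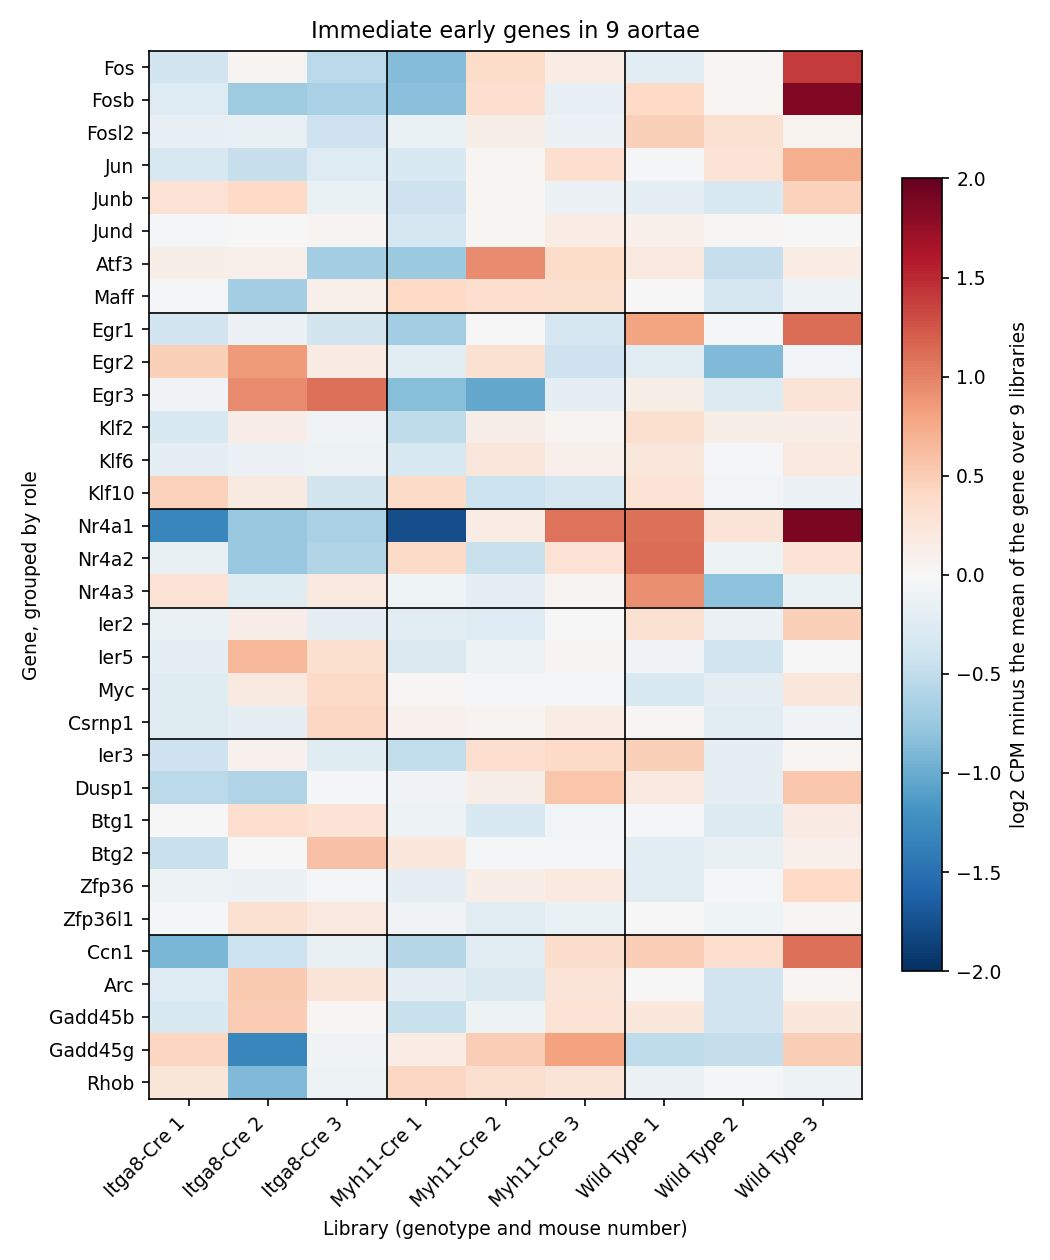
Log2 CPM of each gene (rows, grouped by role) in each of 9 libraries (columns), minus the mean of that gene over the libraries; red is above and blue below the mean, with the scale ending at 2 and -2. The Wild Type 3 column is the highest of the 9 for 9 genes, and the Myh11-Cre 1 column the lowest for 11.

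Single mice stood apart across many of the genes. Wild Type 3 had the highest level of the 9 libraries for Fos, Fosb, Jun, Junb, Egr1, Nr4a1, Ier2, Zfp36 and Ccn1, which is 28.1% of the 32 genes against 7.32% of all tested genes, and the lowest for 0 of them. Without Wild Type 3, the log2 fold change in Itga8-Cre against Wild Type was -1.61 for Nr4a1, -0.88 for Ccn1, -0.72 for Egr1 and -0.47 for Jun. Myh11-Cre 1 had the lowest level for 11 genes, Fos, Fosb, Junb, Jund, Egr1, Atf3, Ier3, Nr4a1, Klf2, Klf6 and Gadd45b (34.4%, against 14.1% of all). Summed over the 32 genes the level was 1057, 1034 and 1109 CPM in Itga8-Cre 1, 2 and 3, 1049, 1159 and 1259 CPM in Myh11-Cre 1, 2 and 3, and 1233, 1072 and 1424 CPM in Wild Type 1, 2 and 3. The groups overlap in this sum.

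The libraries also differed in depth and in markers of other cell types. Total counts ran from 31419238 to 42497543. The summed level of 12 smooth muscle markers was 1687 to 2237 CPM in the Itga8-Cre mice, 1359 to 3957 CPM in the Myh11-Cre mice and 2568 to 4193 CPM in the Wild Type mice, so Itga8-Cre lay below Wild Type. Of the 12, 11 had a lower fitted level in Itga8-Cre than in Wild Type, and Des a higher one. Within the sum, Des made up 124, 605 and 729 CPM in Myh11-Cre 1, 2 and 3. In Wild Type 1, 2 and 3 it made up 99.6, 185 and 146 CPM. The sum of 12 skeletal muscle markers was 170 to 7662 CPM in the Itga8-Cre mice, 94.6 to 17518 CPM in the Myh11-Cre mice and 934 to 1993 CPM in the Wild Type mice. Sums for 10 macrophage markers (580 to 1080 CPM in the Itga8-Cre mice, 417 to 1064 CPM in the Myh11-Cre mice, 392 to 532 CPM in the Wild Type mice) and 8 mesothelial markers (74.5 to 125 CPM in the Itga8-Cre mice, 108 to 216 CPM in the Myh11-Cre mice, 30.3 to 65.0 CPM in the Wild Type mice) were higher in each Itga8-Cre library than in each Wild Type library. Without Lyz2, which had 315 to 705 CPM in the Itga8-Cre mice, the sum of the other 9 macrophage markers was 264 to 375 CPM in the Itga8-Cre mice, 247 to 438 CPM in the Myh11-Cre mice and 232 to 286 CPM in the Wild Type mice, and the groups overlapped. Mesothelial sums in Myh11-Cre also lay above Wild Type. The sum of 7 tested neutrophil markers was 13.6 to 19.8 CPM in the Itga8-Cre mice, 8.26 to 30.9 CPM in the Myh11-Cre mice and 7.47 to 10.5 CPM in the Wild Type mice, so Itga8-Cre lay above Wild Type. The sum of 8 nerve and glia markers was 224 to 333 CPM in the Itga8-Cre mice, 123 to 229 CPM in the Myh11-Cre mice and 241 to 505 CPM in the Wild Type mice, so Myh11-Cre lay below Wild Type. The ranges of the 10 endothelial markers were 626 to 795 CPM in the Itga8-Cre mice, 731 to 827 CPM in the Myh11-Cre mice and 780 to 858 CPM in the Wild Type mice. For 12 lymphocyte and thymocyte markers the sum was 162 to 1051 CPM in the Itga8-Cre mice, 239 to 643 CPM in the Myh11-Cre mice and 229 to 322 CPM in the Wild Type mice. These groups overlapped, as did those for the brown fat, fat cell, fibroblast and red blood cell sums. None of these markers was at 0 in every library, and their part in the values of the immediate early genes was not tested. In bulk tissue, fewer cells of a type and less RNA per cell cannot be told apart.

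AP-1 is a dimer of a FOS protein with a JUN protein, or of relatives such as ATF3 and the small MAF proteins. Of 8 AP-1 genes, 7 had a fitted level below Wild Type in Itga8-Cre (median log2 fold change -0.31) and 6 in Myh11-Cre (median -0.24), where 44.1% and 49.1% of all tested genes were lower. Of these, 3 and 2 were lower at an unadjusted p under 0.05, against 2.81% and 9.48% of all tested genes. The same shares over all genes stand beside the counts of the other roles. Fos had 6.40, 8.60 and 5.75 CPM in the Itga8-Cre mice, 4.57, 10.7 and 9.17 CPM in the Myh11-Cre mice and 7.21, 8.44 and 22.0 CPM in the Wild Type mice. Only Wild Type 3 stands out, and the other 8 libraries overlap. For Fos, the log2 fold change was -0.86 (SE 0.46) in Itga8-Cre against Wild Type and -0.62 (SE 0.46) in Myh11-Cre against Wild Type; without Wild Type 3 these became -0.18 and 0.06. Fosb, a close relative of Fos, had 2.17, 1.58 and 1.65 CPM in the Itga8-Cre mice, 1.45, 3.28 and 2.32 CPM in the Myh11-Cre mice and 3.42, 2.67 and 9.34 CPM in the Wild Type mice. Its highest Itga8-Cre library lay below the lowest Wild Type library. The fitted log2 fold change of Fosb in Itga8-Cre against Wild Type was -1.51 (SE 0.50), or -0.76 without Wild Type 3, and that in Myh11-Cre against Wild Type was -1.13 (SE 0.49), or -0.37 without Wild Type 3. Fosb was not below Wild Type in every Myh11-Cre library.

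Fosl2 encodes FRA2, a FOS relative without the strong activating domain of FOS. It had 42.2, 42.6 and 35.6 CPM in the Itga8-Cre mice, 43.1, 51.2 and 43.4 CPM in the Myh11-Cre mice and 65.8, 58.1 and 49.6 CPM in the Wild Type mice. The Itga8-Cre libraries lay below all others, with a log2 fold change of -0.53 (SE 0.13) against Wild Type, and Myh11-Cre overlapped Wild Type, with -0.33 (SE 0.13). For Fosl2, Wild Type 3 was the lowest of the 3 controls, unlike for Fos and Fosb.

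Jun, the main partner of Fos, had 44.0, 40.2 and 46.1 CPM in the Itga8-Cre mice, 44.8, 56.6 and 69.3 CPM in the Myh11-Cre mice and 53.7, 66.8 and 91.1 CPM in the Wild Type mice. The Itga8-Cre libraries were close together and all below Wild Type, with a log2 fold change of -0.70 (SE 0.21); Myh11-Cre overlapped both other groups, with -0.31 (SE 0.21) against Wild Type. Junb, which can oppose Jun, had 33.6, 36.4 and 25.2 CPM in the Itga8-Cre mice, 20.7, 28.3 and 25.5 CPM in the Myh11-Cre mice and 24.0, 22.2 and 37.9 CPM in the Wild Type mice, with the groups overlapping. Jund, the JUN protein present in most resting cells, ranged from 44.3 to 62.2 CPM over the 9 libraries. Atf3, a stress-induced partner that often represses, had 7.72, 7.63 and 4.42 CPM in the Itga8-Cre mice, 4.27, 13.6 and 9.19 CPM in the Myh11-Cre mice and 8.17, 5.18 and 7.91 CPM in the Wild Type mice, again overlapping. Maff, a small MAF protein, had 5.12, 3.26 and 5.57 CPM in the Itga8-Cre mice, 6.90, 6.59 and 6.48 CPM in the Myh11-Cre mice and 5.19, 4.15 and 4.87 CPM in the Wild Type mice. Its 3 Myh11-Cre libraries lay within 1.06-fold of each other and above all other libraries, with a log2 fold change of 0.49 (SE 0.21) in Myh11-Cre against Wild Type and -0.52 (SE 0.21) in Itga8-Cre against Myh11-Cre.

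**Figure D3:**
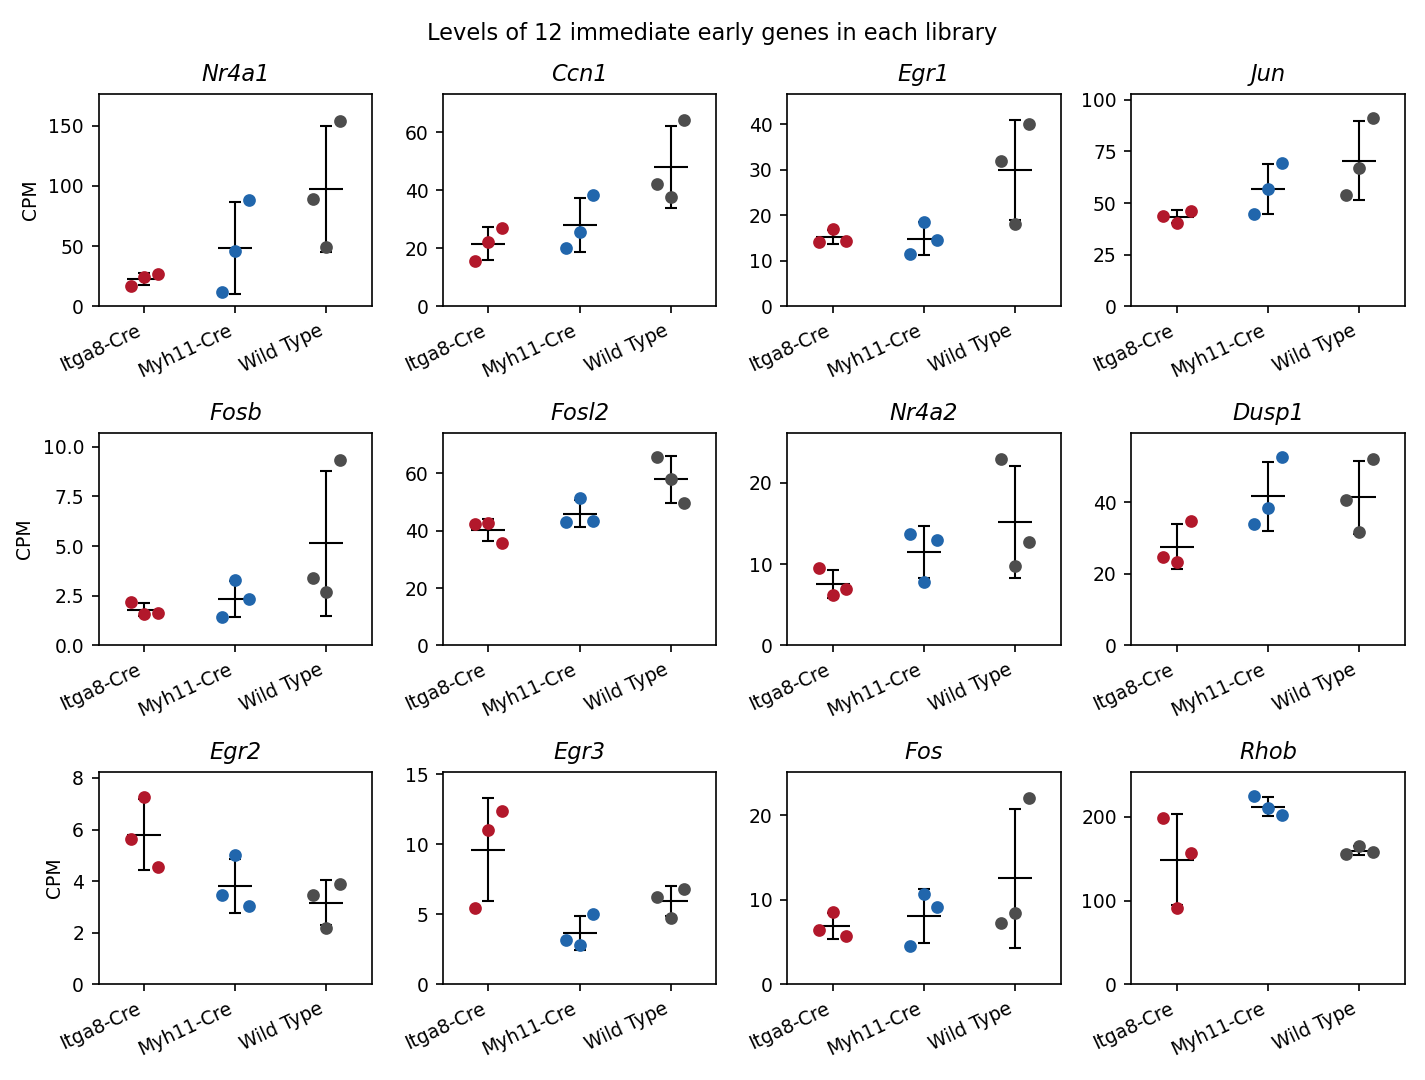
CPM (vertical axis, from 0) of 12 of the genes in each library; points are mice, the horizontal line is the mean of 3 mice and bars are SD. Nr4a1, Ccn1, Egr1, Jun, Fosb, Fosl2 and Nr4a2 have their 3 Itga8-Cre points below all Wild Type points, Egr2 has them above, and Fos and Rhob overlap.

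EGR proteins are zinc finger activators that follow growth factor signals. Of 6 EGR and KLF genes, 3 were below Wild Type in Itga8-Cre and 5 in Myh11-Cre, and 1 was below Myh11-Cre in Itga8-Cre (48.7% of all tested genes were). Egr1 (4.48 kb of exons) had 14.2, 17.1 and 14.4 CPM in the Itga8-Cre mice, 11.4, 18.5 and 14.6 CPM in the Myh11-Cre mice and 31.8, 18.2 and 39.9 CPM in the Wild Type mice. Wild Type 2 lay just above Itga8-Cre and inside the Myh11-Cre range, and the other Wild Type libraries lay above both Cre lines. The log2 fold change of Egr1 was -0.98 (SE 0.28) in Itga8-Cre and -1.01 (SE 0.28) in Myh11-Cre against Wild Type; mean Egr1 was 15.2 ± 1.61 CPM in Itga8-Cre aortae, 14.9 ± 3.56 CPM in Myh11-Cre aortae and 30.0 ± 11 CPM in Wild Type aortae (SD, n = 3 each). Egr2, known for its part in myelination and in immune cells and described here after its values were seen, had 5.63, 7.25 and 4.54 CPM in the Itga8-Cre mice, 3.45, 5.01 and 3.02 CPM in the Myh11-Cre mice and 3.45, 2.19 and 3.88 CPM in the Wild Type mice. All Itga8-Cre libraries lay above all Wild Type libraries, with a log2 fold change of 0.87 (SE 0.29), and Myh11-Cre overlapped both, with 0.27 (SE 0.29) against Wild Type. The macrophage sum given above was also higher in each Itga8-Cre library than in each Wild Type library, but not without Lyz2. The nerve and glia sums of Itga8-Cre and Wild Type overlapped, as did the lymphocyte and thymocyte sums. All 12 lymphocyte and thymocyte markers had a higher fitted level in Itga8-Cre (median log2 fold change 0.86, against 0.04 over all tested genes). Their sum was 162, 344 and 1051 CPM in Itga8-Cre 1, 2 and 3. In Wild Type 1, 2 and 3 it was 245, 322 and 229 CPM. The part of these cell types in the Egr2 values was not tested.

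Egr3 had 5.49, 11 and 12.4 CPM in the Itga8-Cre mice, 3.17, 2.82 and 5.03 CPM in the Myh11-Cre mice and 6.26, 4.76 and 6.84 CPM in the Wild Type mice. Itga8-Cre 2 and 3 were the highest libraries and Itga8-Cre 1 lay within the Wild Type range. The log2 fold change of Egr3 was 1.39 (SE 0.34) in Itga8-Cre against Myh11-Cre, 0.69 (SE 0.33) in Itga8-Cre against Wild Type and -0.70 (SE 0.34) in Myh11-Cre against Wild Type. In all 18 other settings, the unadjusted p of the first of these was under 0.05, with values from 1.15 to 1.68. Klf2, a flow-induced factor of endothelium, had 32.6, 44.2 and 38.3 CPM in the Itga8-Cre mice, 28.2, 43.6 and 41.9 CPM in the Myh11-Cre mice and 49.97, 43.4 and 43.9 CPM in the Wild Type mice, with overlap. Klf6, a zinc finger factor induced by injury, ranged from 85.5 to 91.1 CPM in the Itga8-Cre mice, 78.3 to 114.7 CPM in the Myh11-Cre mice and 96.4 to 113.9 CPM in the Wild Type mice. Klf10, an early target of TGF-beta, ranged from 32.9 to 60.7 CPM, with its groups overlapping.

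Because the 3 EGR genes pointed different ways, ratios of counts were taken within each mouse, which removes library size. Egr2 reads per Egr1 read were 0.396, 0.424 and 0.316 in the Itga8-Cre mice, 0.301, 0.270 and 0.207 in Myh11-Cre and 0.108, 0.121 and 0.0971 in Wild Type. The 3 groups do not overlap: every Itga8-Cre value was above every Myh11-Cre value, and every Myh11-Cre value above every Wild Type value. The difference in mean log2 ratio was 1.80 in Itga8-Cre against Wild Type (1.71 to 1.92 when any 1 library of these groups was left out), 1.24 in Myh11-Cre against Wild Type (1.13 to 1.40) and 0.55 in Itga8-Cre against Myh11-Cre (0.40 to 0.68). Egr1 reads per Egr3 read were 2.59, 1.55 and 1.16 in the Itga8-Cre mice, 3.60, 6.58 and 2.91 in Myh11-Cre and 5.09, 3.82 and 5.84 in Wild Type, so that the Itga8-Cre values lay below the other groups.

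There were 19 such pairs within families, tested in 3 comparisons after the values of single genes had been seen. The two-sided exact permutation test of 3 against 3 mice cannot give a p under 0.1, and over the 57 tests the smallest Benjamini-Hochberg adjusted p of this exact test was 0.356. Groups did not overlap for 7 of 19 pairs (36.8%) in Itga8-Cre against Wild Type, for 4 (21.1%) in Myh11-Cre against Wild Type and for 5 (26.3%) in Itga8-Cre against Myh11-Cre. Over all pairs of 2 tested genes the share was 11.4%, 25.6% and 11.6% in the same order of comparisons. In Itga8-Cre against Wild Type the other pairs apart were Jun/Junb, Jun/Jund, Nr4a1/Nr4a3, Nr4a2/Nr4a3 and Ier2/Ier5, all lower in Itga8-Cre. Jun reads per Jund read were 0.805, 0.721 and 0.791 in the Itga8-Cre mice, 1.01, 0.993 and 1.11 in Myh11-Cre and 0.894, 1.18 and 1.62 in Wild Type. Pairs share genes, so these counts are not independent.

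**Figure D4:**
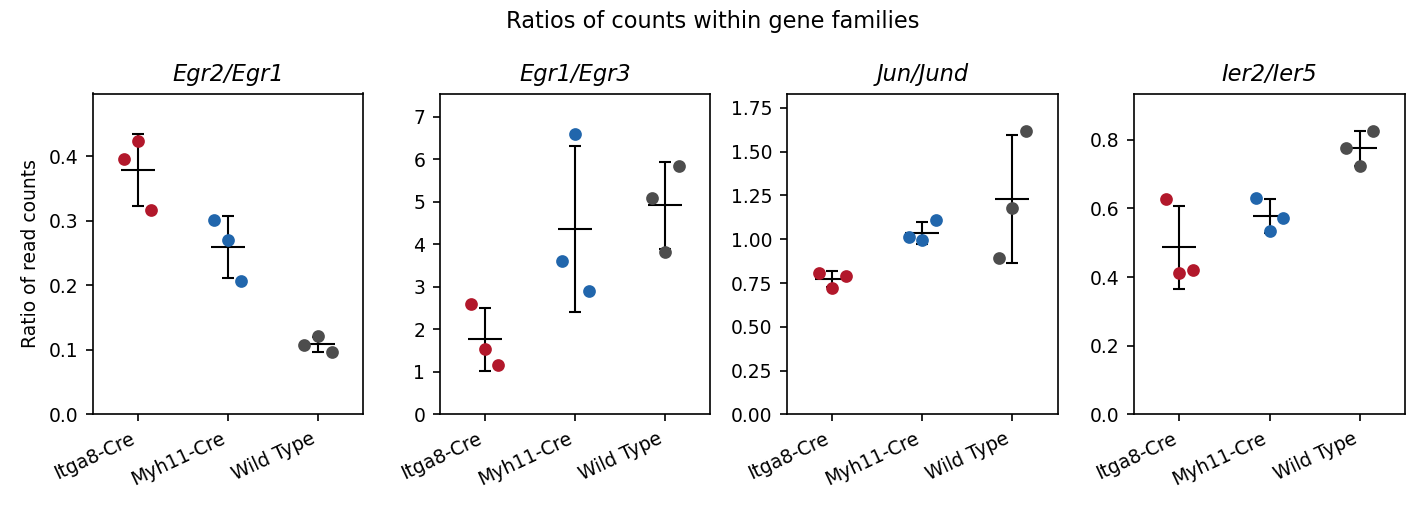
Ratio of read counts of 2 genes of a family (vertical axis, from 0) in each mouse; points are mice, the horizontal line is the mean of 3 mice and bars are SD. Egr2/Egr1 separates all 3 groups, with means of 0.379 for Itga8-Cre, 0.259 for Myh11-Cre and 0.109 for Wild Type.

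The NR4A genes encode orphan nuclear receptors that act without a known hormone and whose level sets their activity. All 3 had a fitted level below Wild Type in both Cre lines, with 2 at an unadjusted p under 0.05 in Itga8-Cre (2.81% of all tested genes) and 0 in Myh11-Cre (9.48% of all). Nr4a1 (NUR77; chromosome 15, 101254269 to 101274795 on GRCm38) had 16.8, 24.6 and 26.6 CPM in the Itga8-Cre mice, 12.2, 45.9 and 88.0 CPM in the Myh11-Cre mice and 88.8, 49.5 and 153 CPM in the Wild Type mice. The highest Itga8-Cre library lay below the lowest Wild Type library, and Myh11-Cre spanned 7.2-fold. The log2 fold change of Nr4a1 was -2.10 (SE 0.66) in Itga8-Cre against Wild Type, with means of 22.7 ± 5.16 CPM in the Itga8-Cre mice and 97.2 ± 52.5 CPM in the Wild Type mice (SD, n = 3 each). It was -1.0 (SE 0.64) in Myh11-Cre against Wild Type (-0.54 without Myh11-Cre 1, -0.51 without Wild Type 3) and -1.10 (SE 0.64) in Itga8-Cre against Myh11-Cre; without Myh11-Cre 2 and 3 and Itga8-Cre 3, the last became 0.75. Nr4a2 (NURR1), described after its values were seen, had 9.49, 6.22 and 6.93 CPM in the Itga8-Cre mice, 13.7, 7.78 and 12.9 CPM in the Myh11-Cre mice and 22.9, 9.81 and 12.7 CPM in the Wild Type mice. The Itga8-Cre libraries lay just below the lowest Wild Type library, with a log2 fold change of -1.0 (SE 0.34). Nr4a3 (NOR1) ranged from 9.71 to 14.0 CPM in the Itga8-Cre mice, 10.1 to 12 CPM in the Myh11-Cre mice and 6.53 to 21.8 CPM in the Wild Type mice, and its groups overlapped. The values of the 3 genes differed in spread and in order over the libraries. The promoters printed above hold 4 cores in each of the 3 genes, and any link between cores and levels was not tested.

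Of 4 other nuclear factors, 3 had a fitted level above Wild Type in each Cre line and Ier2 was below it. Ier2 had 13.4, 16.1 and 13.0 CPM in the Itga8-Cre mice, 12.7, 12.3 and 14.6 CPM in the Myh11-Cre mice and 18.1, 13.5 and 20.4 CPM in the Wild Type mice. Wild Type 2 again lay within the Cre lines, and the log2 fold change was -0.39 (SE 0.17) in Myh11-Cre against Wild Type. Ier5, a regulator of heat shock factor activity, ranged from 21.5 to 39.0 CPM in the Itga8-Cre mice, 20.1 to 25.6 CPM in the Myh11-Cre mice and 18.6 to 24.6 CPM in the Wild Type mice. Ier2 reads per Ier5 read were 0.626, 0.413 and 0.421 in the Itga8-Cre mice, 0.631, 0.533 and 0.571 in Myh11-Cre and 0.776, 0.723 and 0.826 in Wild Type, so that both Cre lines lay below Wild Type. Myc, the driver of growth genes, had 10.6, 14.3 and 16.3 CPM in the Itga8-Cre mice, 12.7, 12.2 and 12.2 CPM in the Myh11-Cre mice and 10.2, 11 and 14.7 CPM in the Wild Type mice, with overlap. Csrnp1, a nuclear protein first found as AXIN1-induced, ranged from 15.9 to 25.1 CPM over the 9 libraries.

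Feedback members limit the response. Of the 6, 3 were below Wild Type in Itga8-Cre and 4 in Myh11-Cre, with median log2 fold changes of 0.01 and -0.01. Dusp1 (MKP-1), which removes phosphate from MAP kinases, had 24.6, 23.4 and 34.9 CPM in the Itga8-Cre mice, 33.9, 38.5 and 52.5 CPM in the Myh11-Cre mice and 40.7, 31.6 and 52.0 CPM in the Wild Type mice. Itga8-Cre 3 overlapped both other groups, and the log2 fold change was -0.58 (SE 0.24) in Itga8-Cre against Wild Type and -0.59 (SE 0.24) in Itga8-Cre against Myh11-Cre. Zfp36, which binds AU-rich elements and speeds the decay of early mRNAs, had 29.3, 28.8 and 30.5 CPM in the Itga8-Cre mice, 27.7, 34.3 and 35.8 CPM in the Myh11-Cre mice and 26.8, 30.5 and 41.5 CPM in the Wild Type mice. The Itga8-Cre libraries lay within 1.06-fold of each other and inside the range of the other groups. Its relative Zfp36l1 had 60.1, 76.1 and 70.7 CPM in the Itga8-Cre mice, 59.0, 53.0 and 56.6 CPM in the Myh11-Cre mice and 62.5, 58.5 and 62.7 CPM in the Wild Type mice, with Itga8-Cre above Myh11-Cre in every library (log2 fold change 0.29, SE 0.10).

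Btg1, an anti-proliferative partner of mRNA deadenylases, had 130.3, 163 and 156 CPM in the Itga8-Cre mice, 121, 105 and 125 CPM in the Myh11-Cre mice and 126, 107 and 145 CPM in the Wild Type mice. Itga8-Cre lay above Myh11-Cre in every library (log2 fold change 0.36, SE 0.14) and overlapped Wild Type. Btg2, its p53-inducible relative, ranged from 34.3 to 69.6 CPM, with both the lowest and the highest library in Itga8-Cre. Ier3, a survival factor, ranged from 5.88 to 11.5 CPM.

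Of 5 matrix, cytoskeleton and stress effectors, 3 were below Wild Type in Itga8-Cre and 2 in Myh11-Cre. Ccn1 (CYR61; chromosome 3, 145646976 to 145649981 on GRCm38), a secreted matricellular protein that signals through integrins, had 15.8, 22.2 and 26.9 CPM in the Itga8-Cre mice, 20.1, 25.5 and 38.2 CPM in the Myh11-Cre mice and 42, 37.8 and 64.2 CPM in the Wild Type mice. Itga8-Cre lay below Wild Type in every library, and Myh11-Cre 3 overlapped the lowest Wild Type library. For Ccn1, the log2 fold change was -1.15 (SE 0.30) in Itga8-Cre and -0.78 (SE 0.30) in Myh11-Cre against Wild Type. Rhob, a small GTPase of endosomes and stress fibres, had 198, 90.8 and 157 CPM in the Itga8-Cre mice, 224, 211 and 202 CPM in the Myh11-Cre mice and 155, 165 and 158 CPM in the Wild Type mice. The Myh11-Cre libraries were the highest, and Itga8-Cre 2 lay far below the rest. For Rhob, the fitted log2 fold change was 0.41 (SE 0.24) in Myh11-Cre against Wild Type, -0.51 (SE 0.24) in Itga8-Cre against Myh11-Cre and -0.10 (SE 0.24) in Itga8-Cre against Wild Type, where it was 0.14 without Itga8-Cre 2.

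Arc, best known at synapses, was low, with 3.69, 6.33 and 5.25 CPM in the Itga8-Cre mice, 3.89, 3.60 and 5.26 CPM in the Myh11-Cre mice and 4.40, 3.36 and 4.53 CPM in the Wild Type mice, all overlapping. The growth arrest genes Gadd45b and Gadd45g ranged from 6.35 to 12.3 CPM and from 13.7 to 59.6 CPM. Gadd45g was lowest in Itga8-Cre 2, as were Jun, Nr4a2, Dusp1, Maff and Rhob (18.8% of members, against 17% of all tested genes). In that library Egr2, Ier5, Btg1, Zfp36l1, Arc and Gadd45b were highest (18.8%, against 18.6% of all). Both shares are near those over all genes.

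Per kilobase of exon, Rhob had the highest mean level over the 9 libraries (73.8 CPM per kb), followed by Jund (33.6 CPM per kb) and Gadd45g (31.7 CPM per kb). Fos (3.91 CPM per kb) and Egr1 (4.47 CPM per kb) lay below Jun (17.9 CPM per kb), Junb (12.3 CPM per kb), Nr4a1 (16 CPM per kb) and Ccn1 (16.1 CPM per kb). Fosb was the lowest of the 32 genes (0.496 CPM per kb), and Egr2 had 1.26 CPM per kb. The means of Nr4a1 and Ccn1 lie closer together than the spread of either gene between mice.

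The spread between mice of one genotype is given as a description, with no test. The median biological coefficient of variation was 0.226 over the 32 genes and 0.173 over the 12103 tested genes within their range of mean level (3.10 to 173 CPM), and 26 of the 32 genes lay above 0.173. Over all tested genes, which include many with few reads, the median was 0.225. The most variable members were Nr4a1 (0.528), Fosb (0.432) and Fos (0.400), and the least variable were Zfp36l1 (0.129), Jund (0.141) and Fosl2 (0.146). The median ratio of the highest to the lowest mouse was 1.51 for Itga8-Cre, 1.5 for Myh11-Cre and 1.5 for Wild Type, against 1.33, 1.24 and 1.19 over genes of like level. This ratio reached 3.45 for Fosb in Wild Type and 7.2 for Nr4a1 in Myh11-Cre, and within Itga8-Cre it was 1.20 for Egr1 and 1.15 for Jun.

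A second list held 45 other primary response genes, of which 42 were tested and Fosl1, Egr4 and Il6 were not. In Itga8-Cre against Wild Type 26 of the 42 were lower, with a median log2 fold change of -0.19; 9 lower genes (21.4%, against 2.81% of all tested genes) and 3 higher genes (7.14%, against 3.97%) had an unadjusted p under 0.05. In Myh11-Cre against Wild Type 23 were lower (median -0.09), with 4 lower (9.52%, against 9.48% of all) and 3 higher (7.14%, against 6.93%) at that level, which is near the shares over all genes. In Itga8-Cre against Myh11-Cre 28 were lower (median -0.18), with 2 lower (4.76%, against 1.83% of all) and 4 higher (9.52%, against 7.64%). Dusp4, a nuclear phosphatase of MAP kinases, had 25.6, 20.0 and 25.7 CPM in the Itga8-Cre mice, 26.6, 17.2 and 20.4 CPM in the Myh11-Cre mice and 83.9, 35.4 and 62.1 CPM in the Wild Type mice. Both Cre lines lay below every Wild Type library. The log2 fold change of Dusp4 was -1.35 (SE 0.30) in Itga8-Cre and -1.50 (SE 0.30) in Myh11-Cre against Wild Type; edgeR's quasi-likelihood test gave Benjamini-Hochberg adjusted p of 0.699 and 0.218, and DESeq2 gave adjusted p of 0.018 and 0.0014. Apold1, an early response gene of endothelium, had 6.20, 6.20 and 6.37 CPM in the Itga8-Cre mice, 5.66, 9.5 and 9.48 CPM in the Myh11-Cre mice and 15, 10.5 and 11.1 CPM in the Wild Type mice, again with both Cre lines below Wild Type. Against Wild Type its log2 fold change in Itga8-Cre was -0.97 (SE 0.22); the adjusted p was 0.699 in edgeR and 0.0482 in DESeq2. Nfkbia, the inhibitor of NF-kappaB, had 74.3, 63.6 and 75.2 CPM in the Itga8-Cre mice, 75.1, 84.3 and 87.8 CPM in the Myh11-Cre mice and 61.4, 56.5 and 68.3 CPM in the Wild Type mice, so Myh11-Cre lay above Wild Type.

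The 30 kinases and transcription factors that act upstream of these genes had median log2 fold changes of -0.03 in Itga8-Cre against Wild Type, 0.00 in Myh11-Cre against Wild Type and 0.01 in Itga8-Cre against Myh11-Cre. Single genes ran from -0.20 to 0.51, from -0.50 to 0.34 and from -0.24 to 0.46. At an unadjusted p under 0.05 the counts were 0 lower and 1 higher, 4 lower and 1 higher, and 0 lower and 2 higher in these comparisons, beside 2.81% and 3.97%, 9.48% and 6.93%, and 1.83% and 7.64% of all tested genes. The kinase Rps6ka1 (RSK1) had 21.9, 31.6 and 24.7 CPM in the Itga8-Cre mice, 19.4, 19.4 and 18.1 CPM in the Myh11-Cre mice and 21.7, 14.0 and 19.0 CPM in the Wild Type mice, with Itga8-Cre above both. Crtc2, a coactivator of the cAMP response element binding protein, had 18.0, 22.0 and 19.2 CPM in the Itga8-Cre mice, 18.4, 13.6 and 14.8 CPM in the Myh11-Cre mice and 18.9, 25.5 and 21.9 CPM in the Wild Type mice, with Myh11-Cre below Wild Type. Mrtfa, a coactivator of serum response factor, had 29.6, 39.2 and 33.8 CPM in the Itga8-Cre mice, 24.8, 24.8 and 29.6 CPM in the Myh11-Cre mice and 28.4, 29.3 and 28.8 CPM in the Wild Type mice, with Itga8-Cre above Wild Type and above Myh11-Cre in every library.

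Of 12 factors that bind AU-rich mRNA or act in mRNA decay, 0 had an unadjusted edgeR p under 0.05 in either Itga8-Cre comparison. In Myh11-Cre against Wild Type 1 did, as lower (8.33%, against 9.48% of all tested genes). That gene was Zfp36l2, with 85.5, 69.9 and 100.8 CPM in the Itga8-Cre mice, 69.4, 72.7 and 77.6 CPM in the Myh11-Cre mice and 129, 80.4 and 104 CPM in the Wild Type mice. Tia1 and Hnrnpd ranged from 29.0 to 48.5 CPM and from 31.9 to 41.2 CPM over the 9 libraries. Of 12 heat shock genes, 7 lay lower in Itga8-Cre and 11 lay higher in Myh11-Cre than in Wild Type, with 0 and 1 (higher; 8.33%, against 6.93% of all) at an unadjusted p under 0.05. In Itga8-Cre 11 were lower than in Myh11-Cre, with 2 lower at that level (16.7%, against 1.83% of all). Hspa1a (HSP70) had 4.86, 5.53 and 7.29 CPM in the Itga8-Cre mice, 6.02, 12.3 and 13.0 CPM in the Myh11-Cre mice and 10.8, 5.82 and 9.68 CPM in the Wild Type mice. Hspb1 was the 1 higher gene at that level in Myh11-Cre against Wild Type. It had 30.4, 31.9 and 38.2 CPM in the Itga8-Cre mice and 31.5, 58.2 and 53.0 CPM in the Myh11-Cre mice. Its Wild Type levels were 38.3, 26.4 and 26.8 CPM, so the groups overlapped. Dnajb1 ranged from 24.0 to 37.0 CPM.

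Annotated exons of 7 members overlap those of a gene on the opposite strand, and whether counting used strand was not given in the sources used here. They are Jun with Junos (232 bases), Junb with Prdx2 (173 bases), Jund with Gm11175 (877 bases), Zfp36 with Gm44710 (125 bases), Zfp36l1 with Gm26669 (1672 bases), Csrnp1 with 1700019L13Rik (224 bases) and Dusp1 with Ergic1 (11 bases). Counts of these 7 genes are uncertain to that extent.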

How the data were processed

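Polyadenylated RNA from 9 mouse aortae was read as single-end 75 nt reads from strand-marking libraries, per the labels' protocols. The authors deposited 2 tables, counts per gene and counts divided by size factors; only the whole-number counts were used. Per the submitters' processing notes the build was GRCm38.p6 and the tools were DESeq2, fastp 0.20.0, featureCounts, Salmon 0.13.1, STAR 2.7.0f and Subread 1.6.4, with no role or order. The sources used here do not state the annotation or strand setting of the counting; neither was given in labels or headers. Identifiers, positions and exon lengths came from GENCODE release M21.

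Counts were fitted in R 4.3.3 with edgeR 4.0.16 (filterByExpr by genotype, 19412 of 55453 genes kept, TMM factors, a group-means model over all 9 libraries, robust quasi-likelihood). The common biological coefficient of variation was 0.294 and the prior degrees of freedom had a median of 2.67. P-values were adjusted by Benjamini-Hochberg over all tested genes, with a threshold of 0.05. DESeq2 1.42.0 and limma 3.58.1 voom were alternatives, with other normalizations, no filter, 2 groups only, a block by mouse number and libraries left out. The edgeR p-values set a difference against the spread between mice, with 3 mice a group and totals of 31419238 to 42497543 counts. In the main fit this spread was shared over all 9 libraries and drew on other genes. The group outside a comparison therefore also enters its p-values. Scripts were tested on simulated data. Ratios were compared by two-sided exact permutation tests with SciPy 1.17.1.

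The members and all lists were chosen with earlier results of these data known. All 32 members are accounted for. Values in every library are given for Fos, Fosb, Jun, Junb, Egr1, Atf3, Nr4a1, Klf2, Dusp1, Zfp36, Ccn1, Rhob, Myc and Arc. They are also given for the 5 members with the smallest p in each comparison. The same holds for up to 3 genes of each other list by smallest p, except that Tia1, Hnrnpd and Dnajb1 are given by range. Egr2, Nr4a2 and, by range, Ier5 were added after their values were seen. Mouse numbers were not taken as pairs because the labels do not say that same-numbered mice belong together. Residuals of same-numbered libraries correlated at 0.03 to 0.40, above 0.1 in 5 of 9 pairs. Those of other-numbered libraries correlated at -0.35 to 0.24, above 0.1 in 1 of 18 pairs. Whether the numbers mark a shared batch was not tested, and p-values without the block would leave out such a pairing.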

Additional observations from a re-analysis of the deposited data

How the results depend on the processing

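No member passed after adjustment in any edgeR or voom setting that kept more than 1 mouse a group. Among all genes, 265 of 19803 passed in Myh11-Cre against Wild Type without the 2 libraries poorest in muscle transcripts (Itga8-Cre 1 and Myh11-Cre 1). The other such edgeR settings and voom called 0 or 1 of all genes in each comparison. DESeq2 called 1 member in Myh11-Cre against Wild Type, Egr1 (log2 fold change -1.0, adjusted p = 0.03), beside 4.26% of all tested genes. With the replicate block by mouse number the members called stayed at 0 in each comparison, with median log2 fold changes of -0.11, -0.11 and -0.04 in Itga8-Cre against Wild Type, Myh11-Cre against Wild Type and Itga8-Cre against Myh11-Cre; in Itga8-Cre against Myh11-Cre the block gave 6 lower members at an unadjusted p under 0.05 in place of 2, adding Jun, Nr4a2, Ccn1 and Rhob, and in Myh11-Cre against Wild Type 4 lower in place of 5, without Fosb and Ier2 and with Egr3. In the check of the numbers, 5 of 9 libraries correlated best with their own number, as a hint from the data and not the design. Leaving out 1 library gave medians from -0.22 to -0.04, from -0.17 to -0.02 and from -0.14 to 0.03. It gave 0 members called and 0 of all tested genes called. Without the 3 libraries richest in skeletal muscle transcripts, which leaves 1 Myh11-Cre mouse assumed to vary like the others, the median was -0.33 in Myh11-Cre against Wild Type and 0.20 in Itga8-Cre against Myh11-Cre, where the values of Fos (0.70), Nr4a1 (0.75), Dusp4 (-0.23) and Apold1 (0.12) also changed sign. With single libraries left out, Rhob ranged from -0.37 to 0.14 in Itga8-Cre against Wild Type (0.14 without Itga8-Cre 2) and Fos from -0.89 to 0.06 in Myh11-Cre against Wild Type (0.06 without Wild Type 3). The cause was not tested. In Itga8-Cre against Wild Type, Fosb had an unadjusted p under 0.05 in 17 of 18 other settings, all but that without Wild Type 3, while Egr2, Nr4a2 and Dusp1 did in 16, 14 and 13. In Myh11-Cre against Wild Type, Egr1 did in 18, Ccn1 in 13 and Fosb in 6. The median biological coefficient of variation of the members was 0.226. Fosb (53 to 359 reads a library) and Egr2 (83 to 262) had the fewest reads, and the part of read depth in the calls was not tested.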
